A study of Canis lupus familiaris with 2 samples.

Results

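The genes described here are 10 regulators of mTOR, the kinase through which cells match growth to nutrients: MTOR itself, the complex subunits RPTOR, RICTOR and DEPTOR, the brake genes TSC1 and TSC2, the sestrins SESN1, SESN2 and SESN3, and DDIT4, a stress-induced inhibitor also known as REDD1. They were chosen by gene symbol, not by a cut on their measured values, though with earlier results of these data known. All 10 were found among the 23510 features of the files. MDCK cells, an established canine kidney line that forms a columnar epithelial sheet, were grown for 3 days on a culture insert in serum-containing EMEM. In 1 culture the medium stood 2 cm high (2 cmH2O, labelled as no pressure; the 2-cm culture) and in the other 50 cm high (50 cmH2O; the 50-cm culture). Line, medium and time were the same in both, and no drug or genetic change was applied. RNA expression was given as FPKM, which counts the fragments on a gene relative to the length of its exons and to the total of the library. With 1 library per medium height there was no replicate error, and no difference below could be tested; all of them compare these 2 libraries only. The values are averages over each culture, so less RNA in every cell and fewer cells holding that RNA cannot be told apart.

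mTOR works in 2 complexes. mTORC1, built on RPTOR, promotes protein and lipid synthesis when amino acids and growth factors are present, and mTORC2, built on RICTOR, phosphorylates AKT and related kinases. The TSC1-TSC2 complex switches off the small GTPase RHEB, the direct activator of mTORC1. Sestrins and DDIT4 are made under stress or nutrient shortage and restrain mTORC1, the sestrins through the GATOR complexes that control the Rag GTPases and DDIT4 through TSC1-TSC2. The authors likened the state of the pressure-loaded cells to starvation, and the comparison asks how the RNA of these regulators stood in that state. Much of mTOR control acts on proteins, which RNA levels do not measure.

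MTOR, RPTOR and RICTOR were slightly higher and the measured brake genes mostly lower in the 50-cm culture, and DDIT4 was the only member above 1 FPKM in both libraries that differed by more than 1.5-fold. Of the 10 genes, 9 exceeded 1 FPKM in both libraries. None of the 9 passed 2-fold, a difference reached by 1.67% of the 11057 features above that minimum (0.389% above 2 and 1.28% below 0.5). By the smaller fold of 1.5, 1 of the 9 passed, against 7.19% of all features (2.13% above and 5.06% below). The log2 ratio between the libraries (50 cm over 2 cm) ran from -0.64 for DDIT4 to 0.22 for RPTOR, with a median of -0.11 beside 0.01 over all features. MTOR, RPTOR and RICTOR made up the 3 genes that were higher, where 52.6% of all features were higher. TSC1, TSC2, the 3 sestrins and DDIT4 made up the 6 that were lower, SESN1 not under quantile normalization, where 47.4% of all features were lower.

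**Figure D1:**
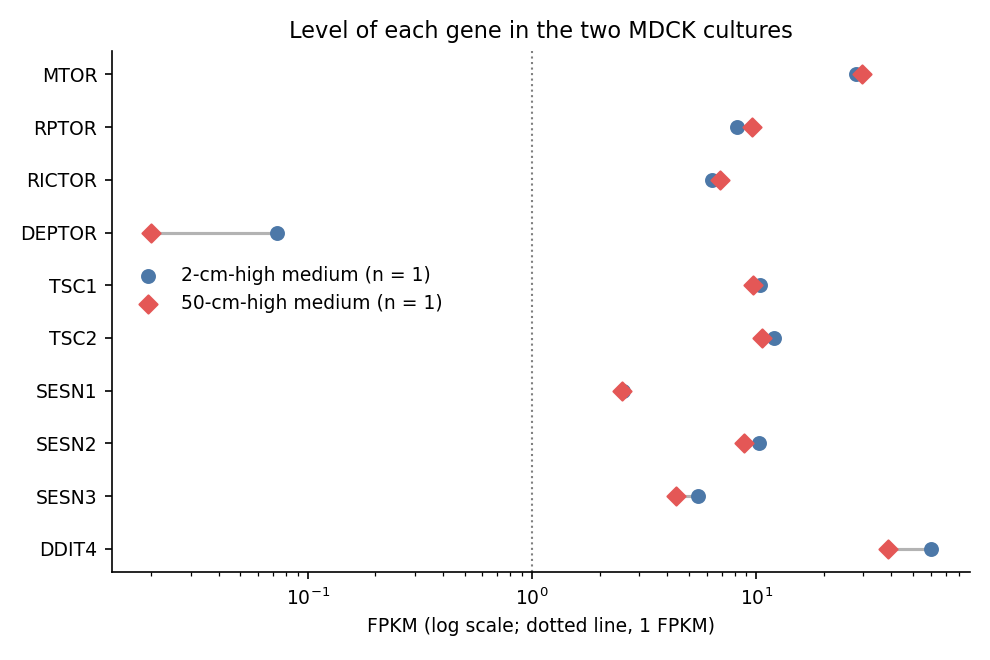
FPKM (log axis) of the 10 genes in the 2-cm culture (circles) and the 50-cm culture (diamonds), 1 library each and so without error bars. The longest lines join the values of DEPTOR, from 0.0727 to 0.0200 FPKM, and DDIT4, from 59.9 to 38.5 FPKM, while the symbols of SESN1 nearly coincide.

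The kinase gene MTOR was at 27.8 FPKM at 2 cm and 29.4 FPKM at 50 cm, 5.95% higher. RPTOR, whose product presents substrates to mTORC1, went from 8.19 to 9.53 FPKM, a ratio of 1.16. RICTOR, the scaffold of mTORC2, went from 6.34 to 6.90 FPKM, a ratio of 1.09. All 3 genes were thus higher at 50 cm, by amounts common among genes of their level. Each was set beside the 500 features closest to it in expression, whose log2 ratios give a spread across genes, not replicate error. RPTOR lay above 84.4% of its neighbours, RICTOR above 71.6% and MTOR above 51.0%. The RPTOR level amounted to 0.295 of the MTOR level at 2 cm and 0.324 at 50 cm, and the RICTOR level to 0.228 and 0.235.

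DEPTOR, an inhibitory subunit of both complexes, was close to the limit of detection, at 0.0727 FPKM at 2 cm and 0.0200 FPKM at 50 cm. Its ratio of 0.274 matched, within 0.05%, that of 4 reads in the first library and 1 read in the second. The match allows for a single read carrying 9.8% more FPKM in the second library. These were the smallest counts that fitted, and larger counts in the same proportion would give the same ratio. At 4 reads and 1 read, the exact 95% binomial interval of the ratio ran from 0.00557 to 2.77, for counting error only. At those counts no direction was detectable. None of the other 9 members had a ratio that whole reads up to 10 per library would give within that tolerance.

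The partners of these subunits were mostly slightly higher as well. Of 7 listed partners, 6 exceeded 1 FPKM in both libraries, 5 of them were higher at 50 cm (52.6% of all features) and none passed 1.5-fold (7.19% of all features), with a median log2 ratio of 0.08. MLST8, a subunit of both complexes, had 4.76 FPKM at 2 cm and 5.09 at 50 cm. AKT1S1, the mTORC1 inhibitor PRAS40, had 41.3 and 43.4 FPKM. For mTORC2, MAPKAP1 had 12.5 and 13.7 FPKM and PRR5 had 10.2 and 12.4 FPKM, the highest ratio of the list at 1.21. PRR5L, a relative of PRR5, stayed below the minimum at 0.256 and 0.259 FPKM. TELO2, which helps assemble mTOR and related kinases, was the only partner above the minimum that was lower, with 11.5 and 11.1 FPKM.

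TSC1 and TSC2 were both lower at 50 cm by small amounts. TSC1, which stabilizes the complex, was at 10.4 FPKM at 2 cm and 9.63 FPKM at 50 cm, a ratio of 0.926. TSC2, the subunit that acts on RHEB, was at 11.98 and 10.6 FPKM, a ratio of 0.885. TSC1 lay above 36.8% of its 500 neighbours in expression and TSC2 above 24.2%, well inside their spread. TBC1D7, the third subunit of the complex, differed more: it had 23.9 FPKM at 2 cm and 15.6 FPKM at 50 cm, a ratio of 0.652. Its log2 ratio of -0.62 was -3.44 scaled median absolute deviations from the median of its neighbours. RHEB, the target of the complex, was nearly equal at 79.1 and 79.5 FPKM. Its relative RHEBL1 had 3.49 and 2.87 FPKM, and over TBC1D7, RHEB and RHEBL1, of which 1 was higher and 2 lower (47.4% of all features were lower), the median log2 ratio was -0.28.

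**Figure D2:**
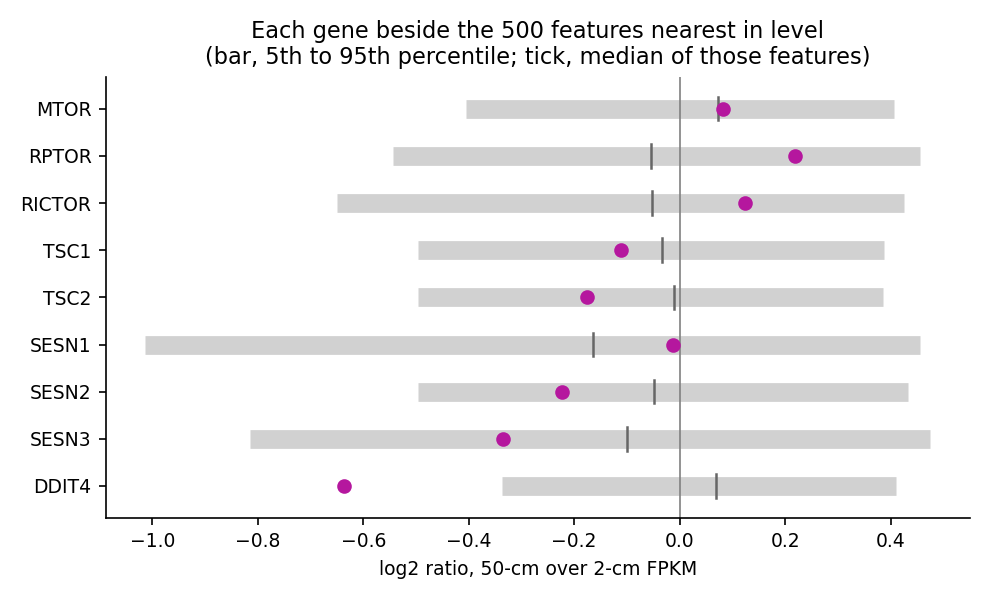
The log2 ratio of FPKM at 50 cm to FPKM at 2 cm (x axis) of the 9 genes above 1 FPKM in both libraries (points), each beside the 5th to 95th percentile (bar) and median (tick) of the 500 features closest in expression. DDIT4, at -0.64, is the only gene outside its bar, which ends at -0.34; the bars are spreads across genes, not replicate error.

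SESN2 and SESN3 were lower at 50 cm, and SESN1 was nearly equal, with a direction that depended on the scaling. SESN2, which binds leucine and releases GATOR2 when leucine is present, was at 10.3 FPKM at 2 cm and 8.79 FPKM at 50 cm, a ratio of 0.857. SESN3, known as a FOXO target, was at 5.51 and 4.37 FPKM, a ratio of 0.793. SESN1, known as a p53 target, was at 2.54 and 2.52 FPKM, a ratio of 0.991. Under quantile normalization the log2 ratio of SESN1 turned from -0.01 to 0.16. The summed sestrin level was 18.3 FPKM at 2 cm and 15.7 FPKM at 50 cm. SESN2 gave 56.0% of that sum in the first culture and 56.1% in the second, while the part of SESN3 was 30.1% and 27.9%. Among their neighbours in expression, SESN2 lay above 22.4%, SESN3 above 22.6% and SESN1 above 64.2%, so none of the sestrins stood outside the spread across genes.

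Among the 9 genes above 1 FPKM in both libraries, DDIT4 differed most. It was at 59.9 FPKM at 2 cm and 38.5 FPKM at 50 cm, a ratio of 0.643 (log2 ratio -0.64). Only 1.60% of its 500 neighbours had a lower ratio, and 4.15% of all 11057 features did. The distance to the median of the neighbours was -3.78 scaled median absolute deviations, against -0.80 to 1.15 for the other 8 genes. DDIT4 had been at 2.16 times the MTOR level at 2 cm and was at 1.31 times that level at 50 cm. Its paralog DDIT4L was listed at 0 in both libraries.

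The order of the levels was nearly the same in both cultures. DDIT4 was highest and MTOR next, followed by TSC2 and TSC1. SESN2 then preceded RPTOR at 2 cm, at 10.3 and 8.19 FPKM, and followed it at 50 cm, at 8.79 and 9.53 FPKM. RICTOR, SESN3, SESN1 and DEPTOR completed the order in both. Without replicates, whether neighbours such as TSC1 and SESN2, at 10.4 and 10.3 FPKM at 2 cm, differed in level could not be tested.

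**Figure D3:**
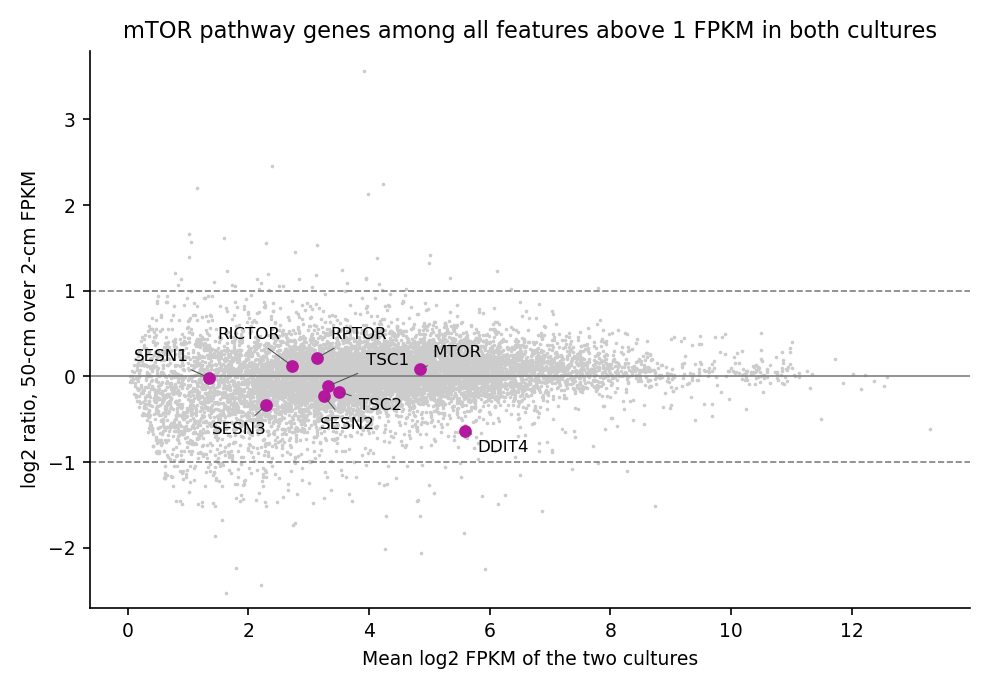
The log2 ratio of FPKM at 50 cm to FPKM at 2 cm (y axis) against the mean log2 FPKM of the cultures (x axis) for the 11057 features above 1 FPKM in both libraries (grey), with the 9 members above that minimum in purple. All 9 lie inside the dashed 2-fold lines, and DDIT4 sits at the lower edge of the features of its level.

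The nutrient sensors that act with the sestrins included larger differences than the sestrins themselves. All 15 listed GATOR, KICSTOR and sensor genes exceeded 1 FPKM in both libraries, of which 6 were higher and 9 lower at 50 cm (47.4% of all features were lower), with a median log2 ratio of -0.11. BMT2, also known as SAMTOR and a sensor of S-adenosylmethionine, went from 3.97 to 1.84 FPKM, a ratio of 0.463 and the only one of the list past 2-fold (1.67% of all features). CASTOR1, the arginine sensor, went from 3.95 to 2.14 FPKM, a ratio of 0.542. At these low levels the spread across genes is wide. BMT2 lay -2.51 and CASTOR1 -1.76 scaled median absolute deviations from the median of their neighbours in expression. The highest ratio was that of WDR24, a GATOR2 subunit, with 12.6 FPKM at 2 cm and 15.4 at 50 cm. When features had to exceed 5 FPKM, which drops BMT2 and CASTOR1, the median of the list was 0.00.

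The lysosomal platform that receives these signals had a small median of the opposite sign. Of 13 listed Rag GTPase, Ragulator and folliculin genes, 12 exceeded 1 FPKM in both libraries, 9 of them higher and 3 lower at 50 cm (52.6% of all features were higher), none past 1.5-fold (7.19%), with a median log2 ratio of 0.09. FLCN, encoding folliculin, which activates RRAGC and RRAGD, had the highest ratio, with 16.1 FPKM at 2 cm and 19.3 at 50 cm. FNIP2, a partner of folliculin, had the lowest ratio, with 23.5 and 21.3 FPKM. All 12 exceeded 5 FPKM in both libraries, and 57.1% of all features above that level were higher. Their distances to the median of their neighbours in expression ran from -0.98 scaled median absolute deviations for FNIP2 to 1.09 for FLCN, inside the spread across genes. RRAGB was listed at 0 in both libraries.

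Downstream of mTOR, 17 substrates and effectors all exceeded the minimum, with 9 higher and 8 lower at 50 cm (52.6% of all features were higher) and a median log2 ratio of 0.03 that turned to -0.02 under quantile normalization and to 0.00 on rescaling to TPM. PDCD4, an inhibitor of translation that is degraded after phosphorylation by the mTORC1 target S6 kinase, was the only one past 2-fold (1.67% of all features), from 3.79 to 1.76 FPKM (ratio 0.465). PRKCA, a kinase that depends on mTORC2, had the highest ratio, from 4.06 to 6.64 FPKM (1.63). The S6 kinase gene RPS6KB1 had 64.3 and 74.5 FPKM, and the translation repressor EIF4EBP1 had 110 and 128 FPKM. The ratio of EIF4EBP1 to its partner EIF4E was 1.08 at 2 cm and 1.11 at 50 cm.

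**Figure D4:**
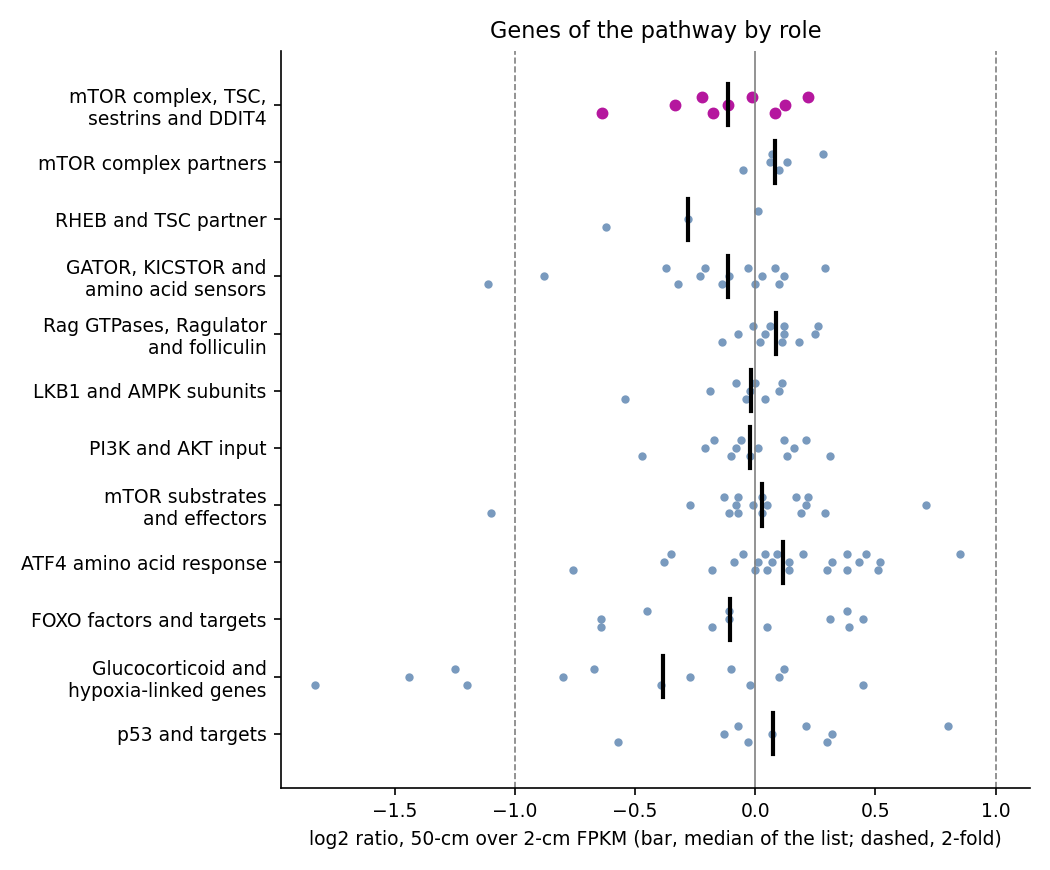
The log2 ratio of FPKM at 50 cm to FPKM at 2 cm (x axis) of every gene above 1 FPKM in both libraries in each of 11 lists and in the set of mTOR complex, TSC, sestrin and DDIT4 genes (purple), with the median of each list (black bar) and 2-fold (dashed lines). The hypoxia and glucocorticoid list has the lowest median, -0.39, and the ATF4 list the highest, 0.11.

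SESN2 and DDIT4 are known to be induced by ATF4, the transcription factor of the amino acid response. Most listed genes of that response, ATF4 among them, were higher at 50 cm, several only slightly. ATF4 itself was at 505 FPKM at 2 cm and 536 FPKM at 50 cm. Of 26 listed genes, 24 exceeded 1 FPKM in both libraries, 18 of them higher and 6 lower, where 52.6% of all features were higher, with a median log2 ratio of 0.11. CTH, an enzyme of cysteine synthesis, had the highest ratio, from 84.5 to 152 FPKM (1.80). NUPR1, a stress-induced nuclear protein, had the lowest, from 161 to 95.3 FPKM (0.591). SESN2, with a ratio of 0.857, and DDIT4, with 0.643, were lower, as were those 6.

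DDIT4 is also a known target of hypoxia factors and of the glucocorticoid receptor. The list of such targets, which also holds the hypoxia factors HIF1A and EPAS1, gave the lowest median of any list. Of 17 listed genes, 13 exceeded 1 FPKM in both libraries, 3 of them higher and 10 lower at 50 cm, with 4 below 0.5 and a median log2 ratio of -0.39, where 47.4% of all features were lower and 1.28% were below 0.5. The mitophagy receptor gene BNIP3, listed under a locus number, went from 89.4 to 25.2 FPKM (ratio 0.282). PDK1, the pyruvate dehydrogenase kinase, went from 46.3 to 17.1 FPKM (0.369). ADM, encoding adrenomedullin, went from 12.3 to 5.19 FPKM (0.421), and the oxygen sensor EGLN3 from 11.2 to 4.86 FPKM (0.434). These 4 are hypoxia targets, and each lay below DDIT4 in ratio. ANKRD37, also of the list, did too at 0.576, whereas SLC2A1 (0.766), NDRG1 (0.829) and VEGFA (0.936) lay above DDIT4. TSC22D3, a glucocorticoid-induced gene, went from 18.5 to 11.6 FPKM (0.629), whereas FKBP5, another one, had 34.1 and 33.7 FPKM. EPAS1, itself a hypoxia factor, had the highest ratio of the list, from 2.50 to 3.41 FPKM (1.36). Also higher were HIF1A, from 38.7 to 42.2 FPKM (1.09), and PER1, from 5.39 to 5.79 FPKM (1.07). Whether any of these factors set the DDIT4 level was not tested.

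The p53 and FOXO lists, which hold the known inducers of SESN1 and SESN3 and other targets of them, were mixed. For p53, 9 of 11 genes exceeded the minimum, with 5 higher and 4 lower at 50 cm (52.6% of all features were higher) and a median log2 ratio of 0.07. CDKN1A, the cell cycle inhibitor p21, went from 51.0 to 88.6 FPKM (ratio 1.74), and BTG2, an antiproliferative gene, from 17.1 to 11.6 FPKM (0.675). For FOXO, 11 of 16 genes exceeded the minimum, with 5 higher and 6 lower (47.4% of all features were lower) and a median of -0.11 that moved to 0.22 above 5 FPKM. TXNIP, an inhibitor of glucose uptake, had 17.4 and 23.8 FPKM (1.37), and the cyclin gene CCNG2 had 6.73 and 4.32 FPKM (0.642).

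The markers fitted an epithelial culture in both libraries but did not settle its kidney origin. The 8 epithelial markers summed to 5161 FPKM at 2 cm and 4799 FPKM at 50 cm. Of these, 7 exceeded 1 FPKM in both libraries, and CDH16, a kidney cadherin, was the exception at 1.96 and 0.676 FPKM. None of 6 fibroblast, 3 endothelial and 2 leukocyte markers reached 1 FPKM. Their summed levels were 0.172 and 0.154 FPKM for fibroblast markers, with COL3A1, DCN and LUM at 0, and 0.458 and 0.268 FPKM for endothelial markers, with PECAM1 at 0. PTPRC and CD3E, the leukocyte markers found, were at 0 in both libraries, and CD68, also planned, was not among the features. A 0 may be a failed estimate, so the markers at 0 do not show that a cell type was absent.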

How the data were processed

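The deposited FPKM values were made by the authors from 75-base single-end reads of stranded mRNA libraries, which they aligned to the CanFam3.1 build (TopHat 2.0.13, run with Bowtie 2 version 2.2.3 and SAMtools version 0.1.19) and summarised in Cuffnorm 2.2.1. The gene annotation and library scaling are not given in the sources used here. FPKM keeps no read counts, so depth is unknown apart from the worth of 1 read, taken from 219 of 574 features below 0.1 FPKM (ratio 1.0977, within 0.2%). The FPKM at 50 cm was divided by that at 2 cm, with no pseudocount, wherever a feature exceeded 1 FPKM in both libraries, the minimum of the study's methods. At that minimum 185 of 11057 features passed 2-fold here. The paper reports several times as many genes past 2-fold at the same minimum, and the reason for the gap is not known. Scaled median absolute deviations carry the factor 1.4826. No test was run, since each group has 1 library. Members and lists were chosen with earlier results of these data known. Named were all members, list genes past 2-fold and the highest and lowest of each list. Partners fixed by name were also given (DDIT4L, PRR5, PRR5L, MLST8, AKT1S1, MAPKAP1, TBC1D7, RHEB, CASTOR1, ATF4). Other genes (RPS6KB1, EIF4EBP1, EIF4E, TSC22D3, FKBP5, PRKAA1, RRAGB, ANKRD37, SLC2A1, NDRG1, VEGFA, HIF1A, PER1, ASNS, PSAT1, PCK2, TRIB3, MTHFD2, SLC7A5) were chosen after their values were seen. The 11 lists hold 145 genes, 144 of them matched, 8 through an older name or a RefSeq locus number (table of assembly UU_Cfam_GSD_1.0). Listed at 0 in both libraries were 6 of them, among them PHGDH and INSR, which most cells express, so a 0 may be a failed estimate. Alternatives were 8 settings of the minimum, pseudocount and scaling. Scripts (Python 3.11.15, numpy 2.4.6, pandas 2.3.3, scipy 1.17.1) were tested on simulated data.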

Additional observations from a re-analysis of the deposited data

How the results depend on the processing

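A minimum leaves a gene's own ratio as it is and a pseudocount cannot turn its sign, so only the recentred, TPM and quantile scalings could change a member's direction. Under these, the members above 1 FPKM other than SESN1 kept theirs. Over all settings in which each was measured, the log2 ratio of DDIT4 ran from -0.70 to -0.62, that of MTOR from 0.01 to 0.08 and that of SESN3, which drops out above 5 FPKM, from -0.37 to -0.22. SESN1 turned to 0.16 under quantile normalization, and the cause was not tested. Accepting any FPKM above 0 adds DEPTOR, so 1 member passed 2-fold and 2 passed 1.5-fold. Without DDIT4, an alternative chosen after seeing the data, 0 members passed 1.5-fold and the median was -0.06. The hypoxia and glucocorticoid median moved to -0.53 at a minimum of 0.1 FPKM and at 0 FPKM, where CA9 is added. At a minimum of 5 FPKM, which removes weakly expressed genes, the sensor median moved to 0.001 and the FOXO median to 0.215. Under quantile normalization the RHEB and TSC partner median moved to -0.131 and the FOXO median to 0.002, and the cause was not tested. Medians that moved by up to 0.1 count as unmoved, and 184 of 193 values under an alternative stayed within that limit, the spread of like genes or 1.5 times a count. Much of this was fixed in advance. A minimum leaves each member's ratio as it is, and recentring and TPM shift all ratios alike by less than 0.1. The count is therefore no measure of robustness. No scaling moved the median log2 ratio of all features by more than 0.1. No paired analysis was possible because each medium height has 1 library. Differences of the size seen for MTOR, RICTOR, TSC1 and SESN1 may lie within the error of a single library, which was not measured.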

Other observations

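The energy and growth factor inputs to mTOR differed little. Of 10 genes for LKB1, its partners and the AMPK subunits, 9 exceeded 1 FPKM in both libraries, 3 of them higher and 6 lower at 50 cm (47.4% of all features were lower), with a median log2 ratio of -0.02. PRKAA1, the main catalytic subunit of AMPK here, was at 23.9 FPKM in both cultures. PRKAA2, its paralog, was at 2.04 FPKM at 2 cm and 1.40 FPKM at 50 cm, the lowest ratio of the list at 0.687, and STRADA had the highest at 1.08. Of 14 genes of the PI3K and AKT input, 13 exceeded the minimum, 6 of them higher and 7 lower (47.4% of all features), with a median of -0.02. PIK3R1, a regulatory subunit of PI3K, went from 5.38 to 3.88 FPKM (ratio 0.722), and the insulin receptor adaptor IRS2 from 1.40 to 1.73 FPKM (1.24). None of the genes in these lists that exceeded the minimum passed 1.5-fold (7.19% of all features).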
